A study of Mus musculus with 12 samples.

Results

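The Wnt, Hedgehog, TGF-beta (with BMP and activin) and FGF pathways were described through 50 of their genes, listed by name for this work and measured in mouse prostate with and without Med1. Each gene was read from its brightest probe set (mean of the 12 arrays) among those annotated to 1 symbol. This gave 49 genes of 18194 measured in all: 19 of the Wnt pathway, 8 of Hedgehog, 14 of TGF-beta and BMP and 8 of FGF. Tcf7, a Wnt transcription factor, was not analysed here. The Med1 protein belongs to Mediator, through which DNA-bound factors such as the androgen receptor reach RNA polymerase II. Total RNA was hybridised to 12 single-colour Affymetrix arrays in 4 groups of 3, all from mice of 16 weeks: ventral prostate labelled as Med1 knockout, ventral prostate of wild type, lateral prostate labelled as Med1 knockout and lateral prostate of wild type. The sources used here give neither the strain nor the Cre line or promoter, nor the deleted part of Med1. They do not state the number of animals behind a group either, so the spread behind each p-value is that between arrays and may be technical.

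Wnt ligands bind Frizzled receptors and stabilise beta-catenin, which acts with TCF and LEF factors on target genes. Hedgehog ligands bind Patched, which frees Smoothened to activate the GLI factors, and TGF-beta family ligands signal through paired kinase receptors to SMAD proteins. FGF ligands bind tyrosine kinase receptors and are opposed by Sprouty proteins. In the developing prostate these pathways carry signals between epithelium and the surrounding mesenchyme, for example stromal FGF10 and FGF7 acting on the epithelial receptor FGFR2, and epithelial SHH acting on stromal Patched.

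Signals are log2 values of robust multi-array average (RMA), a method that corrects background, equalises arrays and summarises the probes of a set, so a difference of 1 is a doubling. Medians of single arrays were 6.39 to 6.43 (ventral) and 6.05 to 6.06 (lateral). Med1 itself was 8.90, 8.99 and 8.68 in ventral knockout arrays, against 9.48, 9.52 and 9.29 in ventral wild type. That difference was -0.57 ± 0.12 (SE; limma adjusted p = 0.0119), and it was no longer called without ventral knockout array 3. Lateral Med1 was 8.40, 8.34 and 8.44 in arrays labelled knockout and 8.58, 8.74 and 8.23 in wild type, a difference of -0.13 ± 0.12 that did not pass (limma adjusted p = 0.622). Of 7 measured seminal vesicle genes, mean signal was 3.78 and 3.85 on ventral wild-type arrays 1 and 2 but 5.27 on array 3. It was 8.63 and 8.46 on lateral arrays 1 and 2 labelled knockout, 7.30 on array 3, and 10.61 to 10.72 in lateral wild type. Ventral wild-type array 3 and lateral array 3 labelled knockout therefore stood apart, and counts are given with and without this pair.

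In the ventral lobe 17 of the 49 genes rose in the knockout and 1, Wnt4, fell (limma, Benjamini-Hochberg adjusted p under 0.05 over all genes tested). That is 36.7% of them called, where 9.08% of all genes were called, 5.88% as higher and 3.2% as lower. The 49 genes were chosen with earlier results of these data known, so their shares here and below are no test against all genes. The largest rises were those of the activin subunit gene Inhba (2.27-fold) and of Bmp2 (1.93-fold), followed by the Hedgehog-binding inhibitor Hhip (1.55-fold). The median log2 fold change was 0.22 over the 49 genes and -0.02 over all genes. All 3 knockout arrays lay above all 3 wild-type arrays for 25 of the 49 genes (14.9% of all genes did so), and below them for 5 (14.6% of all genes). Without the pair of arrays that stood apart, 11 genes passed, 10 of them as higher. Without ventral wild-type array 3 alone, 10 passed.

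In the lateral lobe 6 genes fell and 1 rose in arrays labelled knockout, 14.3% called where 5.03% of all genes were (3.42% as lower, 1.62% as higher). The genes that fell were Dkk3, Ptch1, Hhip, Tgfb3, Tgfbr1 and Fgf7, and Rnf43 rose. The median log2 fold change was -0.09, against -0.002 over all genes. Arrays labelled knockout lay wholly below wild type for 13 genes (15.7% of all genes) and wholly above for 2 (11.2%). Without the pair that stood apart, 4 passed, 3 as lower. Without lateral wild-type array 3 or lateral array 2 labelled knockout 2 passed, and without lateral wild-type array 1 or lateral array 3 labelled knockout 3 passed.

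**Figure D1:**
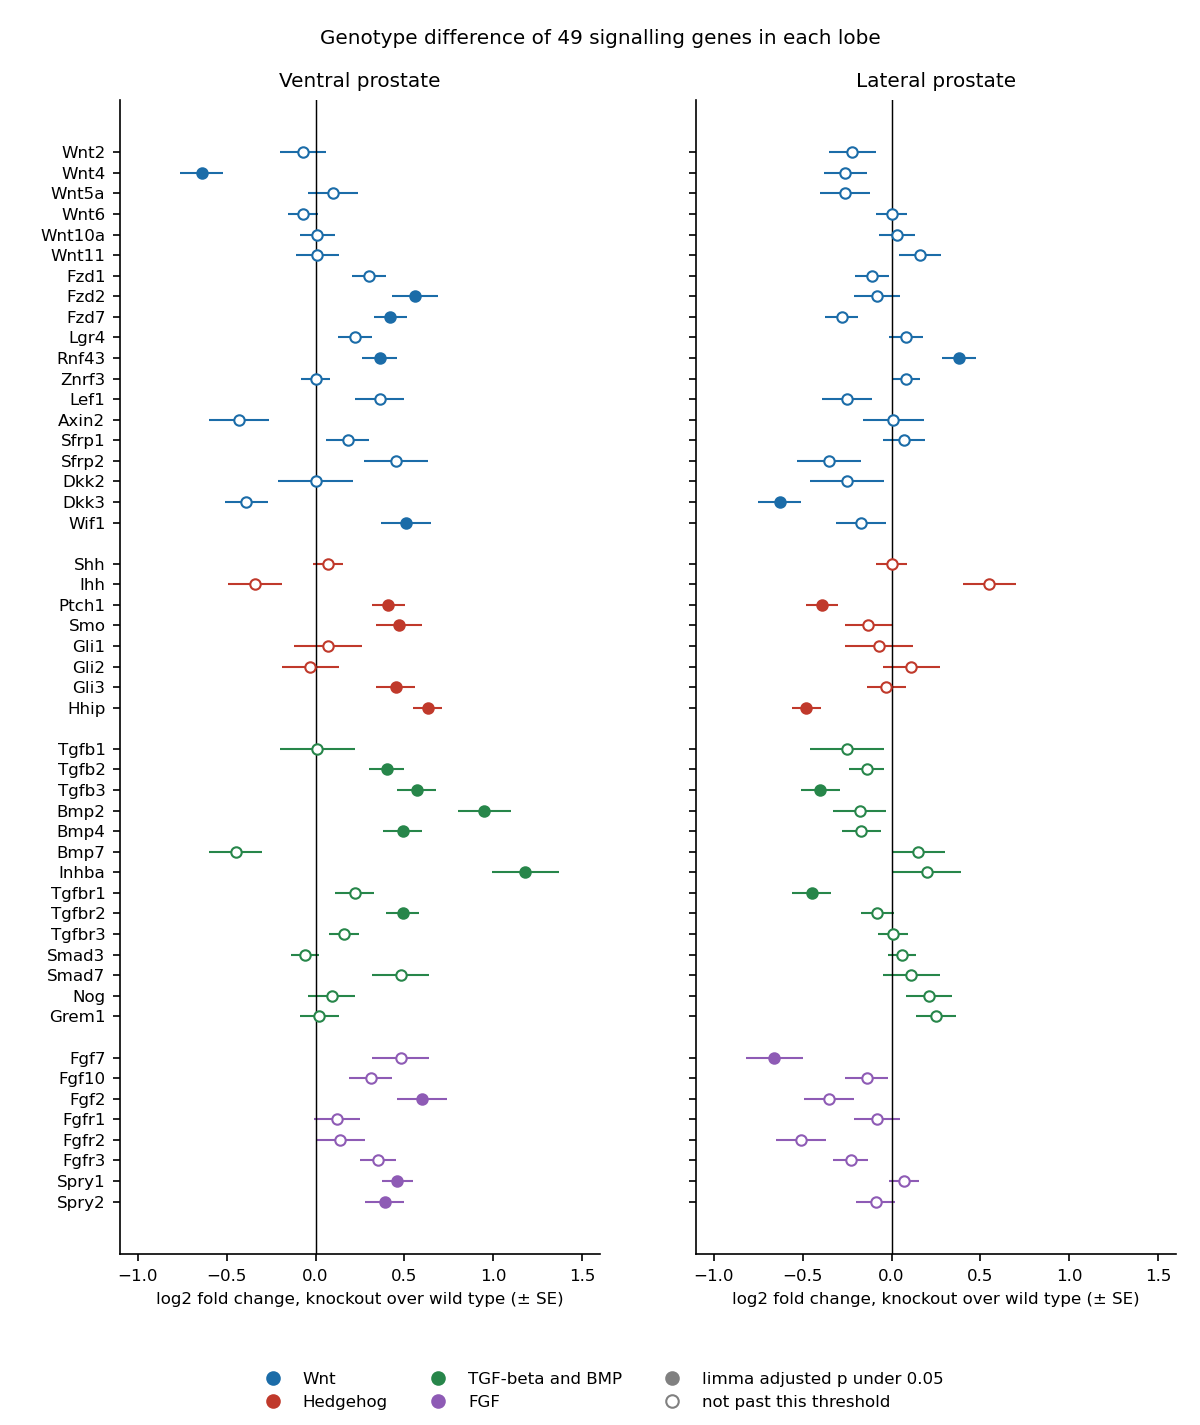
Log2 fold change, knockout over wild type, of each of the 49 genes in the ventral (left) and lateral (right) prostate, with moderated standard errors as bars. Filled points passed the limma threshold and open points did not. In the ventral lobe 17 filled points lie right of 0 and 1 left of it, and in the lateral lobe 1 lies right and 6 left.

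The fold change lay above 0 in the ventral and below 0 in the lateral lobe for 28 of the 49 genes, 57.1% of them, against 26.3% of all genes. The reverse held for 6 genes, a pattern that 29.8% of all genes had. Among the 17 ventral rises, 14 had a lateral fold change below 0, and among the 6 lateral falls, 5 had a ventral fold change above 0. Hhip, Ptch1 and Tgfb3 passed as higher in the ventral and lower in the lateral lobe (0.775% of all genes did). The other Ptch1 probe sets lay the other way, at -0.13 and -0.09 in the ventral and 0.20 and 0.01 in the lateral lobe. The lateral call of Tgfb3 was lost without any 1 of 9 arrays. Hhip, Ptch1 and Tgfb3 are 3 of the 17 ventral rises and 3 of the 6 lateral falls. Over all genes 141 passed in these opposite directions, beside 1069 ventral rises and 622 lateral falls. For all called genes the sign in the other lobe was not counted. Rnf43 passed as higher in both lobes, as did 0.396% of all genes.

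The difference between the lobes was tested directly, as the lateral fold change minus the ventral one. It passed for 16 genes, 15 of them lower in the lateral lobe and 1 higher (32.7% called, against 9.31% of all genes, 6.51% as lower and 2.8% as higher). The median of this difference was -0.37 over the 49 genes and 0.021 over all genes. Wnt4, Dkk3, Smo, Gli3, Spry1 and Spry2, each called in 1 lobe, did not pass this test. Their limma adjusted p was 0.192, 0.415, 0.0514, 0.0751, 0.0617 and 0.0744, so a change in 1 lobe only is not shown for them. Without the pair of arrays that stood apart 10 genes passed, 9 of them lower, and without lateral array 2 labelled knockout 10 passed.

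**Figure D2:**
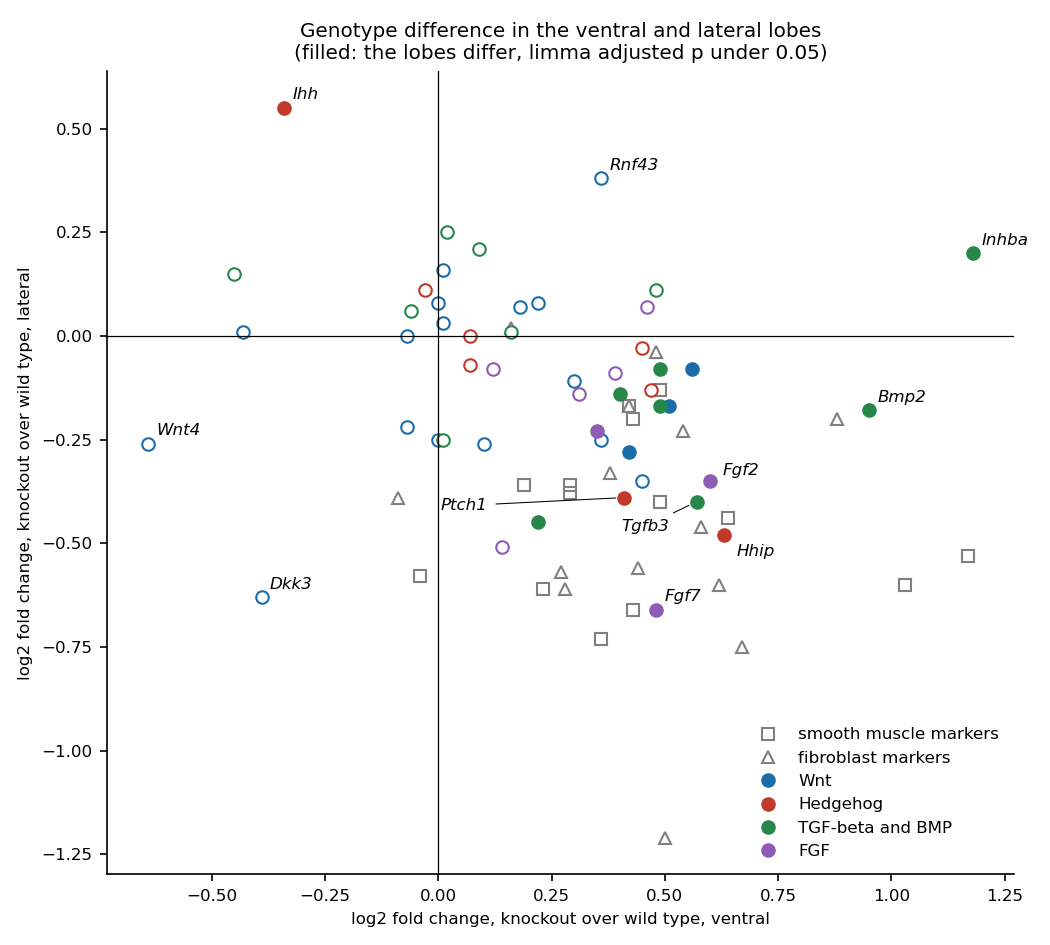
Log2 fold change, knockout over wild type, in the ventral (x axis) and lateral (y axis) lobe for the 49 signalling genes (circles, coloured by pathway) and for markers of smooth muscle (squares) and fibroblasts (triangles). Filled circles are the 16 genes whose lobes differed in limma. Of the 49 circles, 28 lie right of 0 and below 0, with most markers.

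Markers of stroma moved the same way, and so did most basal epithelial markers, with fewer calls. Of 14 smooth muscle markers such as Actg2 and Cnn1, 9 rose and 0 fell in the ventral lobe, while 0 rose and 6 fell in the lateral lobe. Their mean signal was 10.29 to 10.51 in ventral knockout and 9.77 to 10.04 in ventral wild type, and 10.51 to 10.81 in lateral arrays labelled knockout and 11.04 to 11.16 in lateral wild type. Of 14 fibroblast markers such as Col1a2 and Pdgfra, 9 rose and 0 fell in the ventral lobe, while 0 rose and 8 fell in the lateral lobe. Their mean signal was 8.84 to 8.99 in ventral knockout and 8.35 to 8.60 in ventral wild type, and 8.34 to 8.54 in lateral arrays labelled knockout and 8.84 to 8.87 in lateral wild type. Neither list had a marker at low signal, which is a group mean below the lower quartile of that lobe's probe sets. Of 10 luminal epithelial markers 0 rose and 1, Cldn7, fell in the ventral lobe. Limma called 0 of the 10 in the lateral lobe, and 2 had an unadjusted p under 0.05. The luminal mean was 11.27 to 11.38 in ventral knockout and 11.29 to 11.36 in ventral wild type, and 10.81 to 10.90 in lateral arrays labelled knockout and 10.84 to 10.90 in lateral wild type. Of 9 basal markers limma called 0 in the ventral lobe, with 4 at an unadjusted p under 0.05, and 1, Krt5, fell in the lateral lobe. Basal fold changes lay above 0 for 8 of the 9 in the ventral lobe (median 0.25). In the lateral lobe 7 lay below 0 (median -0.25). The basal mean was 7.74 to 7.79 in ventral knockout and 7.52 to 7.64 in ventral wild type, and 7.83 to 7.95 in lateral arrays labelled knockout and 8.0 to 8.17 in lateral wild type. Of the 7 seminal vesicle genes 5 fell in the lateral lobe and limma called 0 in the ventral lobe, with 1 at an unadjusted p under 0.05. Of 6 adipocyte markers, Adipoq and Lep fell in the ventral lobe, and the list mean was 5.49 to 5.62 in ventral knockout and 5.84 to 5.96 in ventral wild type. Of 6 nerve and Schwann cell markers, Mbp and Uchl1 fell in the lateral lobe, and the mean was 6.44 to 6.52 in lateral arrays labelled knockout and 6.68 to 6.77 in lateral wild type. Of 10 endothelial markers limma called 0 in either lobe, with 1 at an unadjusted p under 0.05 in each. All 10 had ventral fold changes above 0, with a median of 0.09. Of 11 leukocyte markers 1 rose in the ventral lobe. Limma called 0 of the 11 in the lateral lobe, with 1 at an unadjusted p under 0.05. The part of these cell types in the changes of the signalling genes was not tested. In whole tissue fewer cells of a type and less RNA per cell cannot be told apart.

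**Figure D3:**
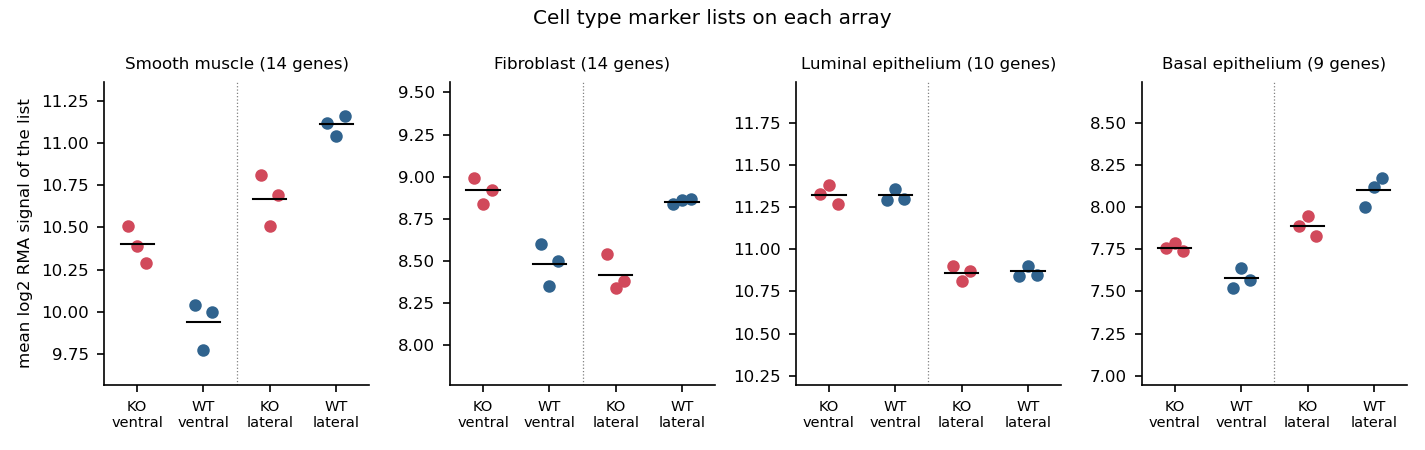
Mean log2 signal of 4 lists of cell type markers on each array (points) with the group mean (line), by genotype and lobe. Smooth muscle, fibroblast and basal means are higher in knockout than in wild type in the ventral lobe and lower in the lateral lobe. The luminal means overlap between genotypes in both.

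In the Wnt pathway 4 of 19 genes rose and 1 fell in the ventral lobe, and 1 rose and 1 fell in the lateral lobe. These are 26.3% and 10.5% of its genes, where 9.08% and 5.03% of all genes were called. The ventral fall was in a ligand. Wnt4, a ligand needed for development of the kidney and the female reproductive tract, was 7.73, 7.72 and 7.63 in ventral knockout and 8.10, 8.55 and 8.37 in ventral wild type. The arrays did not overlap, and the difference of -0.64 ± 0.12 (limma adjusted p = 0.00551) passed without any 1 of the 12 arrays. Lateral Wnt4 was 7.74, 8.10 and 7.83 in arrays labelled knockout, against 8.03, 8.14 and 8.29 in wild type, groups that overlapped (-0.26 ± 0.12, limma adjusted p = 0.26). Of the other ligands, Wnt2, Wnt5a, Wnt6, Wnt10a and Wnt11 had ventral differences between -0.07 and 0.10 and lateral ones between -0.26 and 0.16, with none called. At an unadjusted p under 0.05, Wnt4 was the only ligand in the ventral lobe, and limma gave 0 of 6 in the lateral lobe. Wnt10a was at low signal in all 4 groups, at 3.49 in ventral knockout and 3.48 in ventral wild type, and 4.32 in lateral arrays labelled knockout and 4.28 in lateral wild type.

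Of the 3 Frizzled receptor genes, Fzd2 and Fzd7 rose in the ventral lobe. Fzd2 was 7.62, 7.37 and 7.81 in ventral knockout, all above the 6.94, 6.90 and 7.26 of ventral wild type (0.56 ± 0.13, limma adjusted p = 0.019). Lateral Fzd2 was 7.15, 7.20 and 7.54 in arrays labelled knockout and 7.46, 7.33 and 7.34 in wild type, which overlap (-0.08 ± 0.13). The lobes differed by -0.64, with an adjusted p of 0.05 after rounding. Fzd7 was 8.15, 8.26 and 8.23 in ventral knockout, all above the 7.93, 7.80 and 7.65 of ventral wild type (0.42 ± 0.093, limma adjusted p = 0.0125). Lateral Fzd7 was 7.82, 7.72 and 7.58 in arrays labelled knockout, all below the 8.05, 7.94 and 7.99 of wild type, a difference that did not pass by itself (-0.28 ± 0.093, limma adjusted p = 0.102). The lobes differed by -0.70 (limma adjusted p = 0.00434). Fzd1 and the R-spondin receptor gene Lgr4 were also higher on every ventral knockout array, by 0.30 and 0.22, without passing. With the mean of all probe sets in place of the brightest, the ventral values were 0.24 for Fzd2 and 0.23 for Fzd7, and neither passed (limma adjusted p = 0.0839 and 0.0919). The mean also ended both lobe differences (-0.26 for Fzd2 and -0.30 for Fzd7, limma adjusted p = 0.169 and 0.108), and the other Fzd7 probe set gave a lobe difference of 0.10. The ventral call of Fzd2 was lost without wild-type array 1 or 2 or knockout array 1 or 3 (0.46 to 0.55), and that of Fzd7 without wild-type array 3 (0.35). The lobe difference of Fzd2 was lost without any 1 of 9 arrays (-0.67 to -0.54).

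Rnf43, a ubiquitin ligase gene that is a Wnt target and removes Frizzled receptors from the cell surface, differed in the same direction in both lobes. It was 7.84, 7.92 and 7.68 in ventral knockout and 7.50, 7.44 and 7.43 in ventral wild type (0.36 ± 0.096, limma adjusted p = 0.0326). Lateral Rnf43 was 7.44, 7.45 and 7.42 in arrays labelled knockout and 6.86, 7.17 and 7.14 in wild type (0.38 ± 0.096, limma adjusted p = 0.0383). Knockout arrays were above wild type in both lobes, with no overlap. The ventral call was lost without ventral wild-type array 1, 2 or 3 or knockout array 1 or 2 (0.31 to 0.38). The lateral call was lost without any 1 of 9 arrays: these 3 ventral wild-type arrays, ventral knockout array 1, lateral wild-type arrays 1 and 3 and the 3 lateral arrays labelled knockout (0.28 to 0.42). Znrf3, which encodes a ligase of the same family, differed by 0.00 ± 0.080 in the ventral lobe and 0.08 ± 0.080 in the lateral. Axin2, another Wnt target, was lower on every ventral knockout array without passing (-0.43 ± 0.17, limma adjusted p = 0.139). It was 8.04, 8.12 and 8.11 in ventral knockout and 8.17, 8.32 and 9.08 in ventral wild type, with wild-type array 3 far above the others, and without it the difference was -0.16. On the other Axin2 probe set the groups also did not overlap, at 7.54, 7.31 and 7.70 in ventral knockout and 8.04, 7.90 and 8.32 in ventral wild type. There the ventral difference passed in a limma fit over all probe sets (-0.57 ± 0.12, adjusted p = 0.0166), as did the difference between the lobes (0.77, limma adjusted p = 0.0194). Lef1, which encodes a transcription factor of the pathway, differed by 0.36 ± 0.14 in the ventral lobe and -0.25 ± 0.14 in the lateral, and neither passed (limma adjusted p = 0.137 and 0.375).

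Among secreted antagonists and Dickkopf family genes, Wif1 rose in the ventral lobe and Dkk3 fell in the lateral lobe. Wif1, whose protein binds Wnt ligands, was 9.67, 9.5 and 9.76 in ventral knockout and 9.28, 8.89 and 9.22 in ventral wild type (0.51 ± 0.14, limma adjusted p = 0.0304). Lateral Wif1 was 8.91, 8.46 and 8.83 in arrays labelled knockout and 9.01, 8.75 and 8.95 in wild type, which overlap (-0.17 ± 0.14), and the lobes differed by -0.68 (limma adjusted p = 0.0404). The ventral call was lost without wild-type array 2 or 3 or knockout array 1 or 3 (0.39 to 0.56), and the lobe difference without any 1 of 8 arrays (-0.73 to -0.54). Dkk3, a member of the Dickkopf family expressed in prostate, was 6.71, 6.89 and 6.98 in lateral arrays labelled knockout and 7.20, 7.56 and 7.73 in lateral wild type. The fall of -0.63 ± 0.12 (limma adjusted p = 0.00867) passed without any 1 of the 12 arrays. Ventral Dkk3 lay the same way, at 5.95, 6.08 and 5.97 in knockout and 6.27, 6.42 and 6.49 in wild type, without passing (-0.39 ± 0.12, limma adjusted p = 0.067). Sfrp1, Sfrp2 and Dkk2 did not pass in either lobe. Sfrp2 had the widest gap of these, 0.45 ± 0.18 in the ventral lobe and -0.35 ± 0.18 in the lateral, and Dkk2 was at low signal in the ventral lobe, with 4.51 in knockout and 4.51 in wild type.

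**Figure D4:**
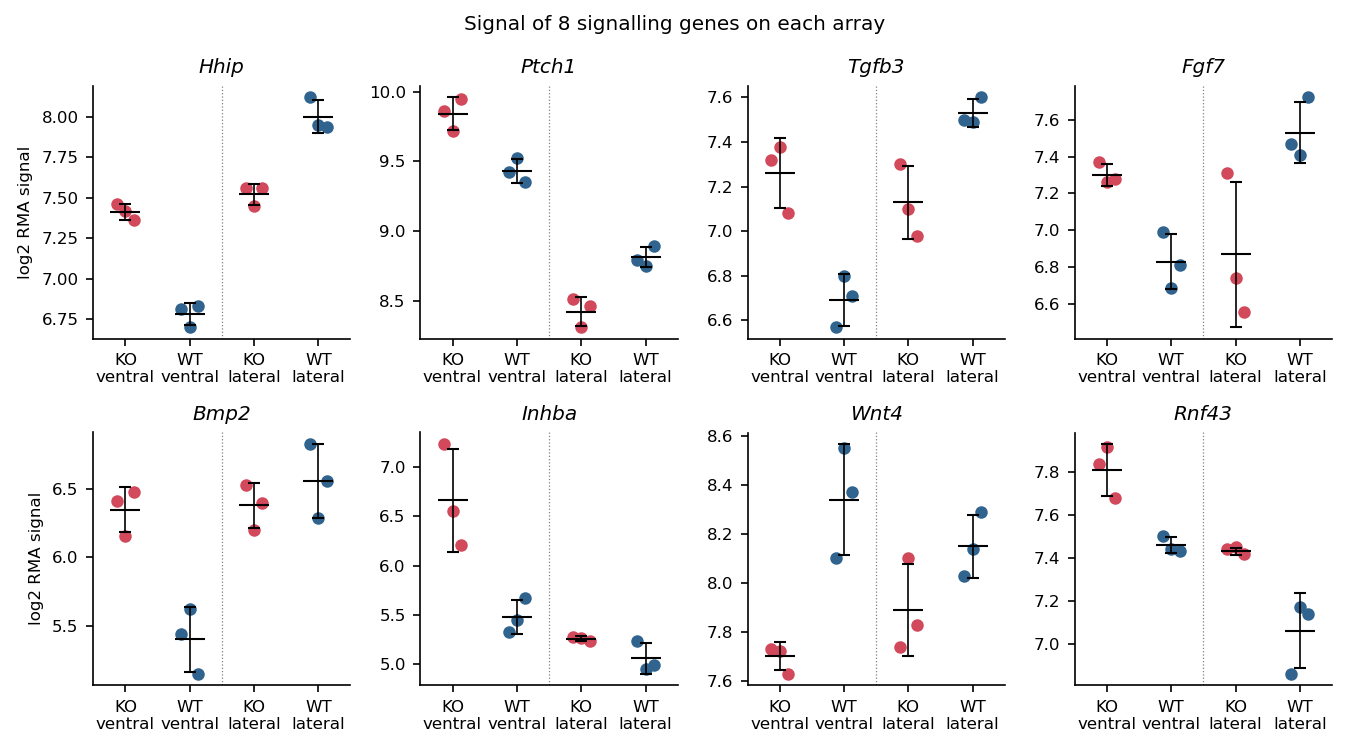
Log2 RMA signal of 8 of the genes on each array (points), with the group mean and standard deviation (3 arrays a group). On their brightest probe sets, Hhip, Ptch1, Tgfb3 and Fgf7 are above wild type in ventral knockout arrays. They are below it in lateral arrays labelled knockout. The ventral difference of Fgf7 did not pass by limma. Rnf43 is above in both lobes, and Inhba, Bmp2 and Wnt4 are separated between genotypes in the ventral lobe.

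In the Hedgehog pathway 4 of 8 genes rose in the ventral lobe and 2 of them fell in the lateral lobe (9.08% and 5.03% of all genes called), while both ligands stayed uncalled within each lobe. Hhip, whose membrane protein binds and sequesters Hedgehog ligands and which is a target of the pathway, was 7.46, 7.42 and 7.36 in ventral knockout and 6.81, 6.70 and 6.83 in ventral wild type. The rise of 0.63 ± 0.082 had a limma adjusted p of 0.00033. Lateral Hhip was 7.56, 7.45 and 7.56 in arrays labelled knockout and 8.12, 7.95 and 7.94 in wild type, a fall of -0.48 ± 0.082 (limma adjusted p = 0.00321). Neither lobe had overlapping arrays. The lobes differed by -1.11 ± 0.12 (limma adjusted p = 6.12e-05), the smallest p among the 49 genes, and all of these calls passed without any 1 of the 12 arrays. The 4 Hhip probe sets had the same sign within each lobe, with ventral differences of 0.39 to 0.63 and lateral ones of -0.65 to -0.25.

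Ptch1, which encodes the Hedgehog receptor and is itself induced by the pathway, moved the same way on its brightest probe set. It was 9.86, 9.72 and 9.95 in ventral knockout and 9.42, 9.52 and 9.35 in ventral wild type (0.41 ± 0.091, limma adjusted p = 0.0124). Lateral Ptch1 was 8.51, 8.31 and 8.46 in arrays labelled knockout and 8.79, 8.75 and 8.89 in wild type (-0.39 ± 0.091, limma adjusted p = 0.0244). Genotypes did not overlap in either lobe, and the lobes differed by -0.80 ± 0.13 (limma adjusted p = 0.00159). The other Ptch1 probe sets differed, with ventral values of -0.13 and -0.09 and lateral values of 0.20 and 0.01. The mean of its 3 probe sets gave 0.07 in the ventral lobe and -0.06 in the lateral, neither called (limma adjusted p = 0.632 and 0.703), and a difference between the lobes of -0.13 (limma adjusted p = 0.48). The ventral call was also lost without wild-type array 3 (0.37) and the lateral call without wild-type array 1 or 3 or array 2 or 3 labelled knockout (-0.40 to -0.33).

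The promoters of these 2 Hedgehog targets are shown because they were called together in opposite directions in the lobes. Each is the 250 bases before the RefSeq start on assembly GRCm38.p6, 5′ to 3′ on the gene's strand. Hhip lies at chr8:80058009-80058258 and Ptch1 at chr13:63565736-63565985, both on the minus strand, with 76.0% and 78.4% G and C. Neither holds a capitalised motif.
Hhip: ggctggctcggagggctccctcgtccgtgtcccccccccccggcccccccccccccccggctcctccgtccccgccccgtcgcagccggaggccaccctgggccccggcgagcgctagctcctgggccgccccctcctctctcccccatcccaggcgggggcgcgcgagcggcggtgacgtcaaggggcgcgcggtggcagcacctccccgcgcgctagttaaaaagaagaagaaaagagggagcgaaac
Ptch1: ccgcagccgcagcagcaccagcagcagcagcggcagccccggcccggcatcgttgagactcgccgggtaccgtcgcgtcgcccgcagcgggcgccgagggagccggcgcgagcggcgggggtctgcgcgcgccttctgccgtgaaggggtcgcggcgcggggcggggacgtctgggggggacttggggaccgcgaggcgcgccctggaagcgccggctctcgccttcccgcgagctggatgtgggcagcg

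The core of the GLI site, CCACCCA or TGGGTGG on the other strand, overlaps the CACCC motif of Krüppel-like factors. It was in 8.11% of 32851 windows of this length and in the windows of 3 of the 34 measured signalling genes with an entry (8.82%, against 9.29% of genes): Fzd7, Grem1 and Tgfb1. The TCF and LEF core, CTTTGAT or ATCAAAG, was in 3.21% of all windows and in 1 of the 34 genes, Wnt11 (2.94%, against 3.72% of genes). The androgen receptor hexamer, AGAACA or TGTTCT, is also bound by other steroid receptors. It was in 16.1% of windows and in 4 of the 34 genes, Axin2, Dkk2, Lef1 and Rnf43 (11.8%, against 18.2% of genes). A match is a description of the letters in this window. Fzd7 (chr1:59481897-59482146) and the first of the 2 Rnf43 starts (chr11:87662837-87663086), both on the plus strand, are shown as the motif holders called between genotypes on their brightest probe set. Capitals mark the GLI core at position -159 from the Fzd7 start, and the androgen receptor hexamer on the other strand at position -240 from the Rnf43 start.
Fzd7: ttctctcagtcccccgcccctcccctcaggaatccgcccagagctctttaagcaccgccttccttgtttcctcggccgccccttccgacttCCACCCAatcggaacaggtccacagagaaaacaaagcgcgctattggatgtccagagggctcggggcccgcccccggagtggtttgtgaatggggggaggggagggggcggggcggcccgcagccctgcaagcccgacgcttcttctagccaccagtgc
Rnf43: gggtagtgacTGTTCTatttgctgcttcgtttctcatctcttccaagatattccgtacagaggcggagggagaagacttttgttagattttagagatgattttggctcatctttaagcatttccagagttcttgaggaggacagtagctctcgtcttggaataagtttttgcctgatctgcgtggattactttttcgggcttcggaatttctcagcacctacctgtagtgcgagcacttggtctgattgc

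Smo, which encodes the signal transducer freed by Patched, rose in the ventral lobe. It was 8.78, 8.91 and 9.29 in ventral knockout and 8.60, 8.41 and 8.57 in ventral wild type, with no overlap (0.47 ± 0.13, limma adjusted p = 0.0331). Without knockout array 3 or wild-type array 1, 2 or 3 it did not pass (0.32 to 0.51). Lateral Smo was 7.67, 7.39 and 7.50 in arrays labelled knockout and 7.55, 7.62 and 7.78 in wild type, which overlap (-0.13 ± 0.13). Gli3, the GLI factor that acts mainly as a repressor, was 6.44, 6.48 and 6.54 in ventral knockout and 6.22, 5.72 and 6.16 in ventral wild type (0.45 ± 0.11, limma adjusted p = 0.0243). The mean of its probe sets gave 0.23 (limma adjusted p = 0.0503), and the call was lost without wild-type array 2 or knockout array 3 (0.29 to 0.42). Lateral Gli3 was 6.41, 6.29 and 6.34 in arrays labelled knockout and 6.35, 6.42 and 6.37 in wild type, a difference of -0.03 ± 0.11. Gli1 and Gli2, the activating factors, did not pass, with ventral differences of 0.07 and -0.03 and lateral ones of -0.07 and 0.11.

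Ihh, the Indian hedgehog ligand, was the 1 gene of the 49 whose lobes differed upwards on its brightest probe set. It was 5.90, 5.92 and 5.50 in lateral arrays labelled knockout, all above the 5.47, 4.88 and 5.32 of lateral wild type (0.55 ± 0.15, limma adjusted p = 0.0571). In the ventral lobe it was 5.2, 5.2 and 5.09 in knockout, all below the 5.35, 5.42 and 5.73 of wild type (-0.34 ± 0.15, limma adjusted p = 0.193). Neither difference passed alone, while the difference between the lobes of 0.88 ± 0.22 did (limma adjusted p = 0.0214). It was lost without ventral wild-type array 3 or lateral array 2 labelled knockout (0.77 to 0.81). Shh, the Sonic hedgehog ligand, differed by 0.07 ± 0.087 in the ventral lobe and averaged 5.80 in both lateral groups. The other Shh probe set had wider gaps, 0.685 ± 0.294 for ventral and -0.593 ± 0.294 for lateral arrays, with genotypes overlapping. Neither passed in the limma fit over all probe sets (adjusted p = 0.197 and 0.325). The lobe difference of that set, -1.279 ± 0.416, did not pass either (limma adjusted p = 0.0894).

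In the TGF-beta and BMP pathway 6 of 14 genes rose in the ventral lobe and 0 fell by limma, with 8 at an unadjusted p under 0.05 in either direction. In the lateral lobe 2 fell and 0 rose, with 3 at an unadjusted p under 0.05. These are 42.9% and 14.3% of its genes, beside the 9.08% and 5.03% of all genes. Of the 6 ventral rises 5 were in ligand genes, of which 7 were measured. Inhba, the subunit of activin A, was 7.23, 6.55 and 6.21 in ventral knockout and 5.33, 5.45 and 5.67 in ventral wild type, well separated although the knockout arrays spread widely. The rise of 1.18 ± 0.19 (limma adjusted p = 0.00169) passed without any 1 of the 12 arrays. Lateral Inhba was 5.28, 5.27 and 5.24 in arrays labelled knockout and 5.24, 4.95 and 4.99 in wild type (0.20 ± 0.19), and the lobes differed by -0.98 (limma adjusted p = 0.0364). That difference was lost without any 1 of 8 arrays (-1.04 to -0.89). The other Inhba probe set had a ventral difference of -0.04, and with the mean of the probe sets the lobes differed by -0.44 (limma adjusted p = 0.0748).

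Bmp2, a bone morphogenetic protein ligand, was 6.41, 6.16 and 6.48 in ventral knockout and 5.44, 5.62 and 5.15 in ventral wild type (0.95 ± 0.15, limma adjusted p = 0.0015). Lateral arrays overlapped at 6.53, 6.20 and 6.40 in arrays labelled knockout and 6.83, 6.29 and 6.56 in wild type (-0.18 ± 0.15), and the lobes differed by -1.13 ± 0.21 (limma adjusted p = 0.00458). Bmp4, a ligand made by prostate mesenchyme, was 6.84, 6.75 and 6.69 in ventral knockout and 6.17, 6.26 and 6.37 in ventral wild type (0.49 ± 0.11, limma adjusted p = 0.0109). It was 6.70, 6.74 and 6.91 in lateral arrays labelled knockout and 7.10, 6.73 and 7.04 in lateral wild type (-0.17 ± 0.11), and the lobes differed by -0.67 ± 0.15 (limma adjusted p = 0.0134). The ventral call of Bmp4 was lost without wild-type array 1 (0.45), and the calls of Bmp2 and both lobe differences passed without any 1 of the 12 arrays. Bmp7, a ligand that restrains branching in the developing mouse prostate, lay the other way without passing (-0.45 ± 0.15 in the ventral lobe, limma adjusted p = 0.0685). Ventral Bmp7 was 7.57, 7.60 and 7.50 in knockout and 7.67, 7.95 and 8.43 in wild type, and without wild-type array 3 the difference was -0.25. Of its other 2 probe sets, 1 passed in the limma fit over all probe sets, with 6.46, 6.61 and 6.25 in ventral knockout and 6.96, 7.04 and 7.53 in ventral wild type (-0.74 ± 0.14, adjusted p = 0.0068) and a difference between the lobes of 0.82 (limma adjusted p = 0.0258). The remaining set gave -0.06 in the ventral lobe.

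The TGF-beta ligands differed among themselves. Tgfb3 was 7.32, 7.38 and 7.08 in ventral knockout, all above the 6.57, 6.80 and 6.71 of ventral wild type (0.57 ± 0.11, limma adjusted p = 0.00492). Lateral Tgfb3 was 7.30, 7.10 and 6.98 in arrays labelled knockout, all below the 7.50, 7.49 and 7.60 of wild type (-0.40 ± 0.11, limma adjusted p = 0.0456). The lobes differed by -0.97 ± 0.15 (limma adjusted p = 0.00127). The ventral call and the lobe difference passed without any 1 of the 12 arrays. The lateral call was lost without any 1 of 9: lateral wild-type array 1, 2 or 3, lateral array 2 or 3 labelled knockout, ventral wild-type array 1, 2 or 3 or ventral knockout array 1 (-0.42 to -0.33). Tgfb2 was 9.59, 9.60 and 9.31 in ventral knockout and 9.03, 9.22 and 9.03 in ventral wild type, with no overlap (0.40 ± 0.097, limma adjusted p = 0.0197). It was 8.93, 8.78 and 8.91 in lateral arrays labelled knockout and 9.06, 8.98 and 9.01 in lateral wild type (-0.14 ± 0.097), and the lobes differed by -0.55 (limma adjusted p = 0.024). Without ventral wild-type array 1 or 3 or knockout array 1 or 2 the ventral rise did not pass (0.35 to 0.37), and the lobe difference was lost without any 1 of 7 arrays (-0.55 to -0.50). Tgfb1, the form best known from immune and wound responses, differed by 0.01 ± 0.21 in the ventral lobe and -0.25 ± 0.21 in the lateral.

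The receptors split by lobe on their brightest probe sets. Tgfbr2, the type II receptor gene, was 10.35, 10.26 and 10.45 in ventral knockout and 9.91, 9.90 and 9.80 in ventral wild type (0.49 ± 0.092, limma adjusted p = 0.00493). Lateral Tgfbr2 was 7.94, 7.66 and 7.73 in arrays labelled knockout and 7.82, 7.83 and 7.92 in wild type, which overlap (-0.08 ± 0.092), and the lobes differed by -0.56 (limma adjusted p = 0.0148). Tgfbr1, the type I receptor gene, was 8.18, 7.96 and 8.22 in lateral arrays labelled knockout, all below the 8.50, 8.57 and 8.64 of lateral wild type (-0.45 ± 0.11, limma adjusted p = 0.0331). Ventral Tgfbr1 was 9.07, 9.18 and 9.39 in knockout and 9.08, 9.11 and 8.80 in wild type (0.22 ± 0.11, limma adjusted p = 0.244), and the lobes differed by -0.66 (limma adjusted p = 0.0177). The lateral call was lost without any 1 of the 6 lateral arrays (-0.50 to -0.37). With the mean of the probe sets, ventral Tgfbr2 was 0.17 (limma adjusted p = 0.17) and lateral Tgfbr1 -0.32 (limma adjusted p = 0.0854), and the lobes differed by -0.13 and -0.18 without passing. Tgfbr3, the co-receptor betaglycan, differed by 0.16 ± 0.085 in the ventral lobe and 0.01 ± 0.085 in the lateral. Smad7, an inhibitory SMAD induced by the pathway, was higher on every ventral knockout array without passing (0.48 ± 0.16, limma adjusted p = 0.0853), with 7.73, 8.02 and 8.63 in knockout and 7.59, 7.72 and 7.64 in wild type. Without knockout array 3 it differed by 0.22. The other Smad7 probe set was 7.27, 7.44 and 7.65 in ventral knockout and 6.67, 7.13 and 6.82 in ventral wild type, and passed in the limma fit over all probe sets (0.58 ± 0.12, adjusted p = 0.0136). Smad3 differed by -0.06 in the ventral lobe and 0.06 in the lateral. The BMP antagonists Nog and Grem1 had ventral means of 3.74 and 3.96 in knockout and 3.66 and 3.94 in wild type, all at low signal, and neither passed in either lobe.

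In the FGF pathway all 8 genes had ventral fold changes above 0, and 3 passed (37.5%, against 9.08% of all genes); in the lateral lobe 1 fell (12.5%, against 5.03%). Fgf2, basic fibroblast growth factor, was 7.07, 6.83 and 6.99 in ventral knockout, all above the 6.26, 6.62 and 6.22 of ventral wild type (0.60 ± 0.14, limma adjusted p = 0.0174). Lateral Fgf2 was 6.34, 6.10 and 5.77 in arrays labelled knockout and 6.5, 6.31 and 6.46 in wild type, which overlap (-0.35 ± 0.14, limma adjusted p = 0.185). The lobes differed by -0.95 ± 0.20 (limma adjusted p = 0.00872), a call that passed without any 1 of the 12 arrays. The ventral call was lost without wild-type array 1 or 3 or knockout array 1 or 3 (0.53 to 0.58).

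Fgf7, a stromal ligand of the epithelial form of FGFR2, fell in the lateral lobe, with 7.31, 6.74 and 6.56 in arrays labelled knockout and 7.47, 7.41 and 7.72 in wild type (-0.66 ± 0.16, limma adjusted p = 0.0267). The arrays did not overlap, but array 1 labelled knockout lay closer to wild type than to the other two. Ventral Fgf7 was 7.37, 7.26 and 7.28 in knockout, all above the 6.99, 6.69 and 6.81 of wild type, without passing (0.48 ± 0.16, limma adjusted p = 0.0776). The lobes differed by -1.14 ± 0.22 (limma adjusted p = 0.00603), also without any 1 of the 12 arrays. The lateral call was lost without lateral wild-type array 1 or 3 or array 2 or 3 labelled knockout (-0.69 to -0.51). Fgf10, the ligand needed for prostate budding, differed by 0.31 ± 0.12 in the ventral lobe and -0.14 ± 0.12 in the lateral, neither of which passed.

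Among the receptors 0 of 3 passed within a lobe by limma, with 1 at an unadjusted p under 0.05 in the ventral lobe and 2 in the lateral. Fgfr2 was 9.10, 8.82 and 8.94 in lateral arrays labelled knockout, all below the 9.47, 9.40 and 9.52 of lateral wild type (-0.51 ± 0.14, limma adjusted p = 0.0594). Another Fgfr2 probe set had a lobe difference of -0.58 that passed in the limma fit over all probe sets (adjusted p = 0.0215). Fgfr3 was 7.62, 7.47 and 7.87 in ventral knockout and 7.19, 7.37 and 7.38 in ventral wild type (0.35 ± 0.10, limma adjusted p = 0.0533). Lateral Fgfr3 was 7.15, 7.18 and 7.23 in arrays labelled knockout and 7.47, 7.47 and 7.32 in wild type (-0.23 ± 0.10), and the lobes differed by -0.58 ± 0.15 (limma adjusted p = 0.0248). That lobe difference was lost without ventral wild-type array 1, lateral wild-type array 1 or 2 or lateral array 2 labelled knockout (-0.58 to -0.52), and the mean of the probe sets gave -0.35 (limma adjusted p = 0.0698). Fgfr1 differed by 0.12 in the ventral lobe and -0.08 in the lateral.

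The Sprouty genes, which are induced by FGF signalling and inhibit it, both rose in the ventral lobe. Spry1 was 8.29, 8.34 and 8.21 in ventral knockout and 7.91, 7.86 and 7.69 in ventral wild type (0.46 ± 0.086, limma adjusted p = 0.00469), a call that passed without any 1 of the 12 arrays. Lateral Spry1 was 7.44, 7.24 and 7.35 in arrays labelled knockout and 7.24, 7.31 and 7.26 in wild type (0.07 ± 0.086). Spry2 was 8.89, 8.90 and 8.83 in ventral knockout and 8.43, 8.51 and 8.50 in ventral wild type (0.39 ± 0.11, limma adjusted p = 0.043). Both groups were tight and separate, but the call, close to the threshold, was lost without any 1 of the 6 ventral arrays, lateral wild-type array 3 or lateral array 1 labelled knockout (0.36 to 0.41). Lateral Spry2 was 7.35, 7.18 and 7.53 in arrays labelled knockout and 7.20, 7.60 and 7.52 in wild type (-0.09 ± 0.11). For neither Sprouty gene did the difference between the lobes pass (limma adjusted p = 0.0617 for Spry1 and 0.0744 for Spry2).

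Other genes of the same pathways were counted from separate lists. Of 55 further Wnt genes, 6 rose and 2 fell in the ventral lobe (14.5%, against 9.08% of all genes), with a median log2 fold change of 0.02. Apcdd1, a Wnt inhibitor and target, rose by 0.86 ± 0.12 (limma adjusted p = 0.000552), and Lgr5, the stem cell receptor for R-spondins, by 1.05 ± 0.18 (limma adjusted p = 0.00263). Lgr5 was 8.20, 8.20 and 9.03 in ventral knockout and 7.46, 7.47 and 7.36 in ventral wild type. Wls, which carries Wnt ligands to the cell surface, rose by 0.42 ± 0.089 (limma adjusted p = 0.0102), and Fzd5 by 0.35 ± 0.083 (limma adjusted p = 0.0176). Leaving out single arrays gave 0.36 to 0.47 for Wls, not called without wild-type array 3, and 0.31 to 0.37 for Fzd5, not called without wild-type array 1 or 3 or knockout array 1. Limma called 0 of the 55 in the lateral lobe, with 10 at an unadjusted p under 0.05.

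Of 14 further Hedgehog genes, 1 rose in the ventral lobe (7.14%, against 9.08% of all genes) and 4 fell in the lateral lobe (28.6%, against 5.03%). Scube2, which helps release Hedgehog ligands, was called in both: 6.85, 6.99 and 6.98 in ventral knockout and 6.61, 6.51 and 6.49 in ventral wild type (0.40 ± 0.077, limma adjusted p = 0.00544), and 8.09, 8.0 and 8.01 in lateral arrays labelled knockout and 8.43, 8.42 and 8.42 in lateral wild type (-0.40 ± 0.077, limma adjusted p = 0.00816). The co-receptor genes Cdon and Gas1 fell in the lateral lobe by -0.55 ± 0.094 (limma adjusted p = 0.00314) and -0.63 ± 0.15 (limma adjusted p = 0.0272). Foxf1, a stromal target of Hedgehog signalling, fell there by -0.61 ± 0.14 (limma adjusted p = 0.0259). Leaving out single arrays gave -0.79 to -0.43 for Gas1 and -0.74 to -0.41 for Foxf1. Both lost the call without lateral wild-type array 1 or 3 or array 2 labelled knockout, and Gas1 also without lateral wild-type array 2 or array 3 labelled knockout.

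Of 39 further TGF-beta and BMP genes, 10 rose and 2 fell in the ventral lobe (30.8%, against 9.08% of all genes), and 2 rose and 2 fell in the lateral lobe (10.3%, against 5.03%). Ccn2, a matrix protein gene induced by TGF-beta, was 10.23, 10.29 and 10.07 in ventral knockout and 9.22, 9.38 and 9.19 in ventral wild type (0.93 ± 0.10, limma adjusted p = 0.000104). Ltbp1, which holds latent TGF-beta in the matrix, rose by 0.89 ± 0.11 (limma adjusted p = 0.00023) and Tgfbi, another TGF-beta target, by 0.72 ± 0.14 (limma adjusted p = 0.00526). Chrdl1, a BMP antagonist, rose by 1.09 ± 0.14 in the ventral lobe (limma adjusted p = 0.000282) and fell by 0.57 ± 0.14 on the log2 scale in the lateral lobe (limma adjusted p = 0.0299). Also in the lateral lobe, Ltbp4 fell by 0.46 ± 0.10 (limma adjusted p = 0.0153). Bambi, a decoy receptor gene, rose by 0.57 ± 0.11 (limma adjusted p = 0.0102), and the BMP target Id1 by 0.38 ± 0.10 (limma adjusted p = 0.0474). Bambi also rose in the ventral lobe, by 0.48 ± 0.11 (limma adjusted p = 0.0189), and so did Ltbp4, by 0.34 ± 0.10 (limma adjusted p = 0.0469). Without single arrays the lateral values were -0.66 to -0.41 for Chrdl1 and -0.53 to -0.38 for Ltbp4, both not called without wild-type array 1 or 3 or array 2 labelled knockout. They were 0.48 to 0.70 for Bambi, not called without array 2 labelled knockout, and 0.33 to 0.48 for Id1, not called without any 1 of 9 arrays. The ventral values were 0.42 to 0.55 for Bambi, not called without wild-type array 1 or 3 or knockout array 3, and 0.27 to 0.39 for Ltbp4, not called without any 1 of 9 arrays.

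Of 32 further FGF genes, 3 rose and 1 fell in the ventral lobe (12.5%, near the 9.08% of all genes), and 3 fell in the lateral lobe (9.38%, against 5.03%). Dusp6, a phosphatase gene induced by FGF signalling, rose by 0.74 ± 0.12 in the ventral lobe (limma adjusted p = 0.00196). Etv5, a transcription factor gene that is a target of FGF signalling, was 6.0, 5.85 and 5.48 in ventral knockout and 5.22, 5.06 and 5.40 in ventral wild type (0.55 ± 0.14, limma adjusted p = 0.0257). Lateral Etv5 was 4.63, 4.51 and 4.89 in arrays labelled knockout and 5.76, 5.56 and 5.50 in wild type (-0.93 ± 0.14, limma adjusted p = 0.00121). Genotypes were separate in both lobes, in opposite directions. Fgf13 rose by 0.69 ± 0.19 in the ventral lobe, against low signal in wild type, and the acidic factor gene Fgf1 fell there by 0.34 ± 0.088 (limma adjusted p = 0.0353 and 0.0277). In the lateral lobe Fgfbp1, which encodes a carrier of FGF ligands, fell by 1.2 ± 0.12 (limma adjusted p = 3.87e-05) and the inhibitor gene Spred2 by 0.53 ± 0.088 (limma adjusted p = 0.00251). Without single arrays the ventral values were 0.44 to 0.70 for Etv5, not called without wild-type array 1 or 2 or knockout array 1 or 2, and -0.40 to -0.28 for Fgf1, not called without wild-type array 2 or 3 or knockout array 1 or 3. Fgf13 gave 0.60 to 0.81 and was not called without any 1 knockout array or without wild-type array 1 or 3.

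The wild-type lobes were also compared, a contrast in which the scale needs care. After sorting each array, values of equal rank spread by a median of 0.049 among the ventral, 0.079 among the lateral and 0.388 among all 12 arrays, as when each lobe is normalized by itself. The median of all genes in lateral minus ventral wild type was -0.336 as deposited, 0.049 after quantile normalization over all arrays and 0.023 after median centring. As deposited, 17 of the 49 genes passed as higher in lateral and 14 as higher in ventral wild type (63.3% of the 49 called, against 68.1% of all genes, 12.3% as higher in lateral and 55.8% as higher in ventral). The counts were 30 and 5 after quantile normalization, and 28 and 6 after median centring. Under all 3 scalings 17 genes were higher in lateral (12.3% of all genes) and 5 in ventral (23.7% of all genes). Both other scalings raise lateral relative to ventral values, and all 2240 genes called higher in lateral as deposited stayed so. The 3 scalings are therefore no further check of the 17 lateral genes. Differences below are given relative to the median of all genes in the deposited values.

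Lef1 had the largest of these differences, 1.93 higher in lateral, with 8.21, 8.08 and 8.08 in lateral and 6.67, 6.21 and 6.71 in ventral wild type (limma adjusted p = 3.18e-07 as deposited). Hhip was 1.56 and Gli1, a direct target of the pathway, 1.26 higher in lateral, and Gli3 0.68 higher. The Dickkopf family genes Dkk2 and Dkk3 were 1.69 and 1.43 higher, Dkk2 against low ventral signal. The ligands Bmp2, Tgfb3, Bmp7, Bmp4 and Fgf7 were 1.5, 1.17, 1.13, 1.03 and 1.04 higher in lateral, as were the receptors Fgfr2 (1.04) and Fgfr1 (0.69). Wnt5a (0.78), Fzd2 (0.68), Wnt10a (1.14) and Nog (1.02), the last 2 at low signal in both lobes, complete the 17. In the other direction Tgfbr2 was -1.67, with 7.82, 7.83 and 7.92 in lateral and 9.91, 9.90 and 9.80 in ventral wild type (limma adjusted p = 3.76e-10 as deposited). Lgr4 was -1.06, Spry2 -0.70, Smo -0.54 and Smad3 -0.51. Of the 14 smooth muscle markers all 14 passed as higher in lateral wild type, beside 6 of 14 fibroblast markers higher and 4 lower, and their part in these differences was not tested.

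**Figure D5:**
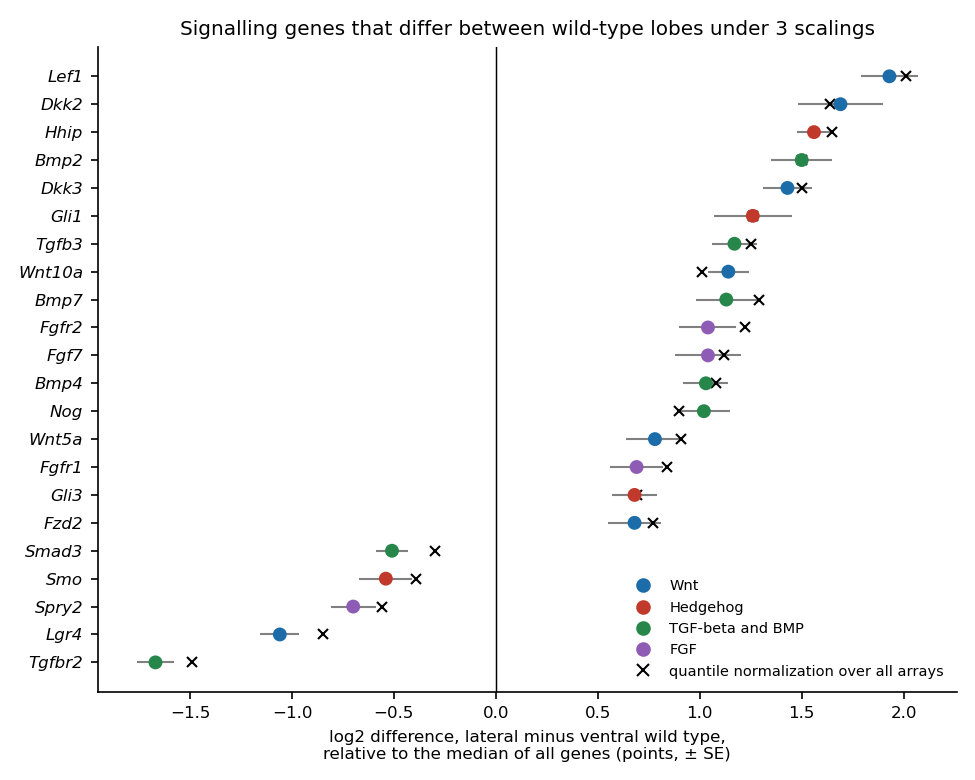
Log2 difference, lateral minus ventral wild type, of the 22 signalling genes called under 3 scalings, relative to the median of all genes, with moderated standard errors as bars. Crosses give the difference after quantile normalization over all arrays. Of the 22 genes, 17 lie right of 0 (higher in lateral) and 5 left of it.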

How the data were processed

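The 12 arrays hold 45101 probe sets. The authors used Affymetrix Expression Console and RMA, per the submitters' processing notes, which name no version, and deposited log2 signals. Of these 34958 had 1 symbol in the platform annotation, 932 had several and were left unnamed, and 9211 had none listed. A RefSeq table of GRCm38.p6 gave current symbols for 34754 by Entrez identifier. The brightest probe set was kept for each of 18194 genes, of which 9012 had several, as did 32 of the 49 signalling genes. The tests used limma 3.58.1 (R 4.3.3) on 4 group means over all 12 arrays (8 residual and 5.68 prior degrees of freedom), with Benjamini-Hochberg adjustment over all genes and a threshold of 0.05. Low signal means a group mean below the lower quartile of the lobe's probe sets (4.73 in ventral and 4.52 in lateral arrays). Array numbers are the replicate numbers of the titles. Pearson correlations between arrays of 1 group were 0.992 to 0.996 across probe sets, and 3 arrays a group limit the precision.

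Every signalling gene called in a lobe or in the difference between lobes is given with its arrays, and of the further lists up to 4 genes of smallest p among those called in each lobe. The genes, lists and markers were chosen with earlier results of these data known. The steps were tested on simulated data. Alternatives were the arrays of 1 lobe, the replicate number as a block, 2 further normalizations, removal of dim genes, the mean of probe sets, another variance model, other thresholds and each array left out. Leaving out the pair of arrays that stood apart was chosen after seeing the data.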

Additional observations from a re-analysis of the deposited data

Results flagged for a closer look

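Med1 itself did not pass as lower in lateral arrays labelled knockout, so fold changes here follow the labels. The log2 fold change of arrays labelled knockout over wild type differed between the lobes for 16 of the signalling genes (limma test of lateral minus ventral). Of these, 15 were lower in the lateral lobe. Among all genes 9.31% were called, 6.51% as lower and 2.8% as higher. Only 6 of the 16 (Hhip, Tgfb3, Bmp2, Bmp4, Fgf7 and Fgf2) passed under all the alternatives followed. With the mean of probe sets 7 of the 16 lost the call, among them Fzd2, Fzd7 and Ptch1. The values that follow are from the brightest probe sets. Among Wnt receptors and antagonists the difference was -0.64 for Fzd2, -0.70 for Fzd7 and -0.68 for Wif1. Among Hedgehog genes it was -1.11 for Hhip and -0.80 for Ptch1, and 0.88 for Ihh, the single positive one. In the TGF-beta family it was -0.55 for Tgfb2, -0.97 for Tgfb3, -1.13 for Bmp2, -0.67 for Bmp4, -0.98 for Inhba, -0.66 for Tgfbr1 and -0.56 for Tgfbr2. In the FGF family it was -1.14 for Fgf7, -0.95 for Fgf2 and -0.58 for Fgfr3.

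Of the further pathway genes named above, 18 also differed between the lobes. In the Wnt list these were Apcdd1 (-1.19), Lgr5 (-1.42) and Wls (-0.64). In the Hedgehog list they were Cdon (-0.51), Foxf1 (-0.81), Gas1 (-1.01) and Scube2 (-0.80). In the TGF-beta and BMP list they were Ccn2 (-1.07), Chrdl1 (-1.66), Ltbp1 (-1.14), Ltbp4 (-0.80) and Tgfbi (-1.16), with Id1 the other way (0.54). In the FGF list they were Dusp6 (-0.88), Etv5 (-1.48), Fgf13 (-1.29), Fgfbp1 (-1.46) and Spred2 (-0.78). The named genes had been picked for calls within a lobe, from which the lobe difference is built, so the choice favours passing here. Over the full lists the lobes differed by limma for 10.9% of 55 Wnt and 28.6% of 14 Hedgehog genes. They did so for 20.5% of 39 TGF-beta and BMP and 15.6% of 32 FGF genes, against 9.31% of all genes.

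Of the stromal markers, 12 of 14 for smooth muscle and 11 of 14 for fibroblasts differed between the lobes in the same direction as most of these genes. So did 3 of 9 basal epithelial markers. The part of these cell types in these differences was not tested.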

How the results depend on the processing

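No called genotype difference of a signalling gene, within or between lobes, changed direction under any alternative run. Between wild-type lobes, Rnf43, Tgfbr1 and Tgfbr3, called lower in lateral as deposited (-0.40, -0.43 and -0.52), gave 0.04, 0.10 and 0.02 after quantile normalization. Calls were followed over every alternative except the 1.5-fold minimum and the removal of the pair of arrays that stood apart. Under all of these, 6 of 18 ventral calls (Wnt4, Hhip, Tgfb3, Bmp2, Inhba and Spry1) passed wherever the gene was tested. So did 2 of 7 lateral calls (Dkk3 and Hhip) and 6 of 16 lobe differences (Hhip, Tgfb3, Bmp2, Bmp4, Fgf7 and Fgf2). With single arrays left out, 10 to 19 genes passed in the ventral lobe (10 without ventral wild-type array 3), 2 to 8 in the lateral lobe, 10 to 18 in the difference between the lobes and 28 to 34 between the wild-type lobes. A change of at least 1.5-fold left 5 ventral and 2 lateral genes, by its construction, while 13 passed in the difference. An adjusted p under 0.10 gave 25 genes in the difference. Without ventral wild-type array 3 and lateral array 3 labelled knockout, 11 genes passed in the ventral lobe, 4 in the lateral lobe and 10 in the difference. The replicate number as a block gave 17 genes in the ventral lobe, 4 in the lateral lobe (all lower), 17 in the difference and 33 between wild-type lobes. The numbers were not taken to pair the samples. Same-numbered arrays of the 2 genotypes deviated together at r = 0.037, 0.116 and 0.029 in the ventral and -0.007, 0.039 and -0.004 in the lateral lobe. Same-numbered lateral and ventral arrays did so at r = -0.046, -0.061 and -0.009 in knockout and 0.072, 0.019 and -0.033 in wild type. The arrays of 1 lobe alone gave 13 ventral and 5 lateral genes, with Fzd2, Rnf43, Wif1, Smo, Gli3 and Tgfb2 losing their ventral call and Rnf43, Tgfb3 and Fgf7 their lateral one. Quantile normalization over all arrays gave 16, 6 and 14 genes, and the mean of probe sets 17, 6 and 12. The causes of these changes were not tested. Arrays carry no read depth, and 3 arrays a group limit every comparison.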
